A study of Rattus norvegicus with 12 samples.

Results

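Respiratory complex I is the NADH dehydrogenase of the inner mitochondrial membrane. Its matrix arm takes electrons from NADH through a flavin and a chain of iron-sulfur clusters to ubiquinone, and its membrane arm pumps protons. The catalytic core is carried by nuclear-encoded subunits of the matrix arm and by mitochondrially encoded subunits of the membrane arm, accessory subunits surround that core, and assembly factors build the enzyme without staying in it. The liver depends on it to reoxidize the NADH of fatty acid and amino acid breakdown, and electron flow through it depends on oxygen at the end of the chain.

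The nuclear complex I genes were followed here in rat hepatocytes isolated after donor death. Members were all probe sets with a single gene symbol that starts with Nduf, which gave 46 probe sets of 42 genes among 31042 non-control probe sets, of which 20826 have a single symbol, for 14217 genes. Of 47 Nduf genes listed for the complex, 42 were measured in this way: 6 core subunits, 10 accessory subunits of the matrix arm, 18 of the membrane arm, 6 assembly factors, and Ndufa4 with its paralog Ndufa4l2. Ndufa7, Ndufa9, Ndufaf7 and Ndufv3 had 2 probe sets each, and every probe set was kept apart. Mitochondrially encoded subunits were not analysed here.

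Hepatocytes were released by perfusing livers of rats, whose strain the labels give as Fischer 334, with collagenase, and RNA was taken without culture. The groups were heart-beating donors, and nonheart-beating donors 4 h, 16 h and 30 h after death, each with 3 different animals and 1 array per animal. The labels give no treatment, genotype, sex or age, nor the manner of death or the temperature of the body, and only cells that a perfusion of the dead liver could still release were measured. Values are log2 signals normalized between arrays, so each is relative to the rest of its array. In bulk samples, fewer cells of a type and less RNA per cell cannot be told apart.

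The label of the cells was checked against hepatocyte genes. Of the plasma proteins, a probe set of Alb (albumin) was the brightest of all 31042, and Ttr (transthyretin) had a mean signal of 13.82, near the top of the scale. Marker counts stand beside 1.49% of all probe sets called lower and 3.18% higher at 16 h, and 9.36% lower and 10.4% higher at 30 h. Of 8 probe sets of Kupffer cell (liver macrophage) genes, 5 were lower at 16 h and 5 at 30 h, and their mean signal was 7.26 to 7.47 on the 16 h arrays and 7.06 to 7.35 on the 30 h arrays, against 7.87 to 8.01 in heart-beating donors. Red cell genes were higher, in 3 of 4 probe sets at 16 h and 4 of 4 at 30 h, with a mean signal of 9.99 to 10.32 at 16 h and 9.96 to 10.69 at 30 h, against 8.51 to 8.78 in heart-beating donors. Of endothelial markers 4 of 7 probe sets were higher at 16 h and 2 at 30 h. Of stellate cell markers 1 of 12 was higher and 1 lower at 16 h, and 4 were higher at 30 h. Of pancreatic acinar markers 2 of 7 were lower at 30 h, and of 4 cholangiocyte markers 0 were called. Of 14 hepatocyte probe sets 1 was higher at 16 h, and at 30 h 5 were lower and 1 higher. The part of these cell markers in the results on complex I was not tested.

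RNA quality also moved with the interval. In heart-beating donors the 3' control probe set of Gapdh exceeded its 5' control by 0.39 ± 0.08 log2 units (SD, n = 3). The gap was 0.38 ± 0.10 after 4 h, 1.05 ± 0.20 after 16 h and 1.97 ± 0.29 after 30 h (n = 3 each). A two-sided exact permutation test gave p = 1 for 4 h, and for the later groups p = 0.1, the smallest that 3 arrays against 3 can give. The corresponding Actb difference was 1.85 ± 0.05, 1.71 ± 0.15, 2.21 ± 0.33 and 2.87 ± 0.11 log2 units in the same order of groups (n = 3 each). Its exact permutation p was 0.2 at 4 h and 16 h and 0.1 at 30 h, and 1 of the 3 arrays at 16 h (1.89) lay inside the range of heart-beating donors (1.80 to 1.90), so Actb did not separate the 16 h group. The gap between the ends rises when RNA is broken, because labelling starts at the 3' end. For Gapdh it did not overlap between the 16 h or 30 h arrays and those of heart-beating donors, so interval after death and RNA quality cannot be told apart in these groups.

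The upstream letters of 5 members are shown because these genes were among those called in opposite directions 30 h after death. Each line holds the 160 bases before the annotated start of the gene on its own strand, from RefSeq (GRCr8), with capitals for matches to the binding letters of regulators known from mitochondrial genes: CCGGAAG for ETS factors such as GABP, and for NRF1 GCGC, any 2 bases and GCGC again, each on either strand. Ndufb8 lies at chr1:253362937-253363096 (minus strand) and was lower, Ndufs6 at chr1:31797240-31797399 (plus strand) and was lower, Ndufaf8 at chr10:105879748-105879907 (plus strand) and was lower, Ndufaf4 at chr5:43401635-43401794 (plus strand) and was higher, and Ndufb7 at chr19:41477292-41477451 (minus strand) and was higher.
Ndufb8: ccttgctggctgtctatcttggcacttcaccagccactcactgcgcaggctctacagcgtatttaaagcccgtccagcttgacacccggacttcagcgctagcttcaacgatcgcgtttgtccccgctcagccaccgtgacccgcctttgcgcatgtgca
Ndufs6: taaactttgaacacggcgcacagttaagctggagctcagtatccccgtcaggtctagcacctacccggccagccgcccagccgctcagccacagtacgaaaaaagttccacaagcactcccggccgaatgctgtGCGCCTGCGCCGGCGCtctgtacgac
Ndufaf8: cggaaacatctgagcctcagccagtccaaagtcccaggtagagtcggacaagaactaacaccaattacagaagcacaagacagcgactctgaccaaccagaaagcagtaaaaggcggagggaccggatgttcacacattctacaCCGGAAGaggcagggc
Ndufaf4: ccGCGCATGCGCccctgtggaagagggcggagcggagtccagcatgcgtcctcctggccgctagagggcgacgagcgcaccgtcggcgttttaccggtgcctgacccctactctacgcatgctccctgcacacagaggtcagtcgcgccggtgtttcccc
Ndufb7: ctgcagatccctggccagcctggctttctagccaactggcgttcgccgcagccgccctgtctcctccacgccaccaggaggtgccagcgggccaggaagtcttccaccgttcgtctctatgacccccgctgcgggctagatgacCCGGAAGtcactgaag
The capitals in Ndufs6 are a pair of overlapping NRF1 matches, those in Ndufaf4 an NRF1 match, and those in Ndufaf8 and Ndufb7 an ETS match that begins 16 bases before the start in both. No match lay in the 160 bases of Ndufb8. In promoter windows of 250 bases, 9 of 40 members with such a window (22.5%) held the ETS letters, against 7.27% of all 33469 promoters. The NRF1 letters were held by 8 of 40 (20.0%), against 4.80%. Members had 1 window per gene, while the 33469 were not limited to 1 per gene or to genes on the arrays. They were not matched to the members in G and C content either, and the shares were not tested. The windows of Ndufc2, Ndufab1, Ndufs7 and Ndufaf1 lay inside the annotated gene. Those of some other members, such as Ndufv1, Ndufv2 and Ndufb1, overlapped it. Ndufaf1 is among the members counted with the ETS letters. The ETS match of Ndufs8 and the NRF1 match of Ndufv2, both counted, reached across the start of the annotated gene. Ndufa8 and Ndufb9 had no promoter window. The YY1 letters AAGATGG were in 0 of 40 and in 4.62% of all. The ETS letters were in 5 of 19 promoters of genes called lower at 30 h, 1 of 3 called higher and 3 of 18 not called, and the NRF1 letters in 3, 1 and 4 of these. Ndufb1, also called higher but not shown, held neither. A match in such a window is a description of letters, not a site.

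No complex I probe set passed the test 4 h after death, 3 of the membrane arm were lower by 16 h, and 21 of 46 were lower by 30 h. At 4 h, 0 of 46 probe sets passed the test (limma, Benjamini-Hochberg adjusted p under 0.05 over all probe sets), where 0.0226% of all probe sets passed. An unadjusted p under 0.05 was found for 0 of 46 and for 5.27% of all probe sets. Their log2 differences from heart-beating donors ran from -0.21 (Ndufa8, SE 0.10) to 0.12 (the dimmer Ndufv3 probe set, SE 0.10), with a median of -0.05, against 0.00 over all probe sets, and 34 of 46 were below 0, where 49.3% of all probe sets were. The 3 comparisons with heart-beating donors share the same 3 arrays of those donors. At 4 h the arrays of the groups did not overlap for 11 of 46, 9 lower and 2 higher, where 6.22% of all probe sets were lower and 7.23% higher in this way.

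**Figure D1:**
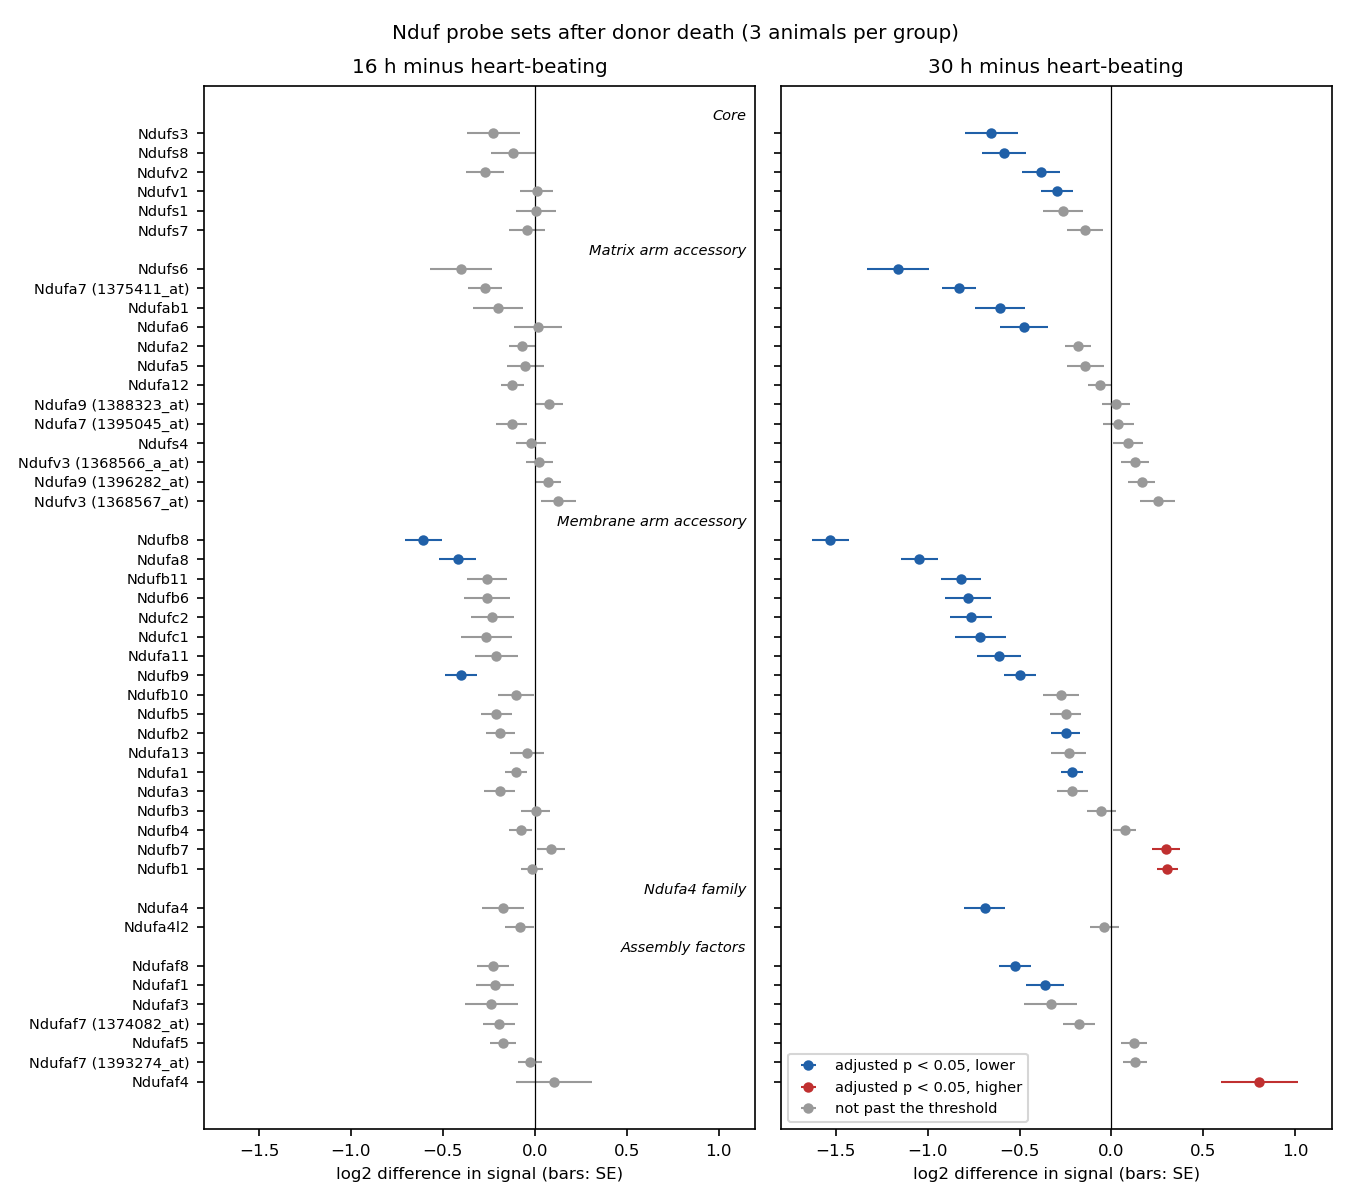
Log2 difference in signal from heart-beating donors (x axis, log2 units, bars are SE) for each of 46 Nduf probe sets (rows, grouped by role), 16 h (left) and 30 h (right) after death, 3 animals per group. Blue points passed the test as lower, red as higher and grey did not pass. At 16 h 3 were lower and 0 higher, and at 30 h 21 were lower and 3 higher, with Ndufb8 lowest at both times.

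At 16 h 3 of 46 probe sets were lower (6.52%) and 0 higher, where 1.49% of all probe sets were called lower and 3.18% higher. An unadjusted p under 0.05 was found for 13 of 46 and for 19.1% of all probe sets. The 3 called encode accessory subunits of the membrane arm. Ndufb8, a subunit whose protein level is widely used to follow assembled complex I, averaged 7.30 ± 0.16 at 16 h and 7.91 ± 0.04 in heart-beating donors (SD, n = 3 each), a log2 difference of -0.61 (SE 0.10, limma adjusted p = 0.00645). Ndufb9 differed by -0.40 (SE 0.09, limma adjusted p = 0.0211) and Ndufa8, which is held in the intermembrane space by disulfide bonds, by -0.42 (SE 0.10, limma adjusted p = 0.0344). The median over the 46 was -0.12, against -0.02 over all probe sets, with 36 of 46 below 0, where 57.8% of all probe sets were. The arrays of the groups did not overlap in 19 of 46, all lower, where 15.7% of all probe sets were lower and 13% higher in this way.

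The count at 16 h depended on single animals. Without heart-beating donor 3, without 16 h animal 2 and without 16 h animal 3 it was 1, and in each case the call that remained was Ndufb8. It was 5 without 30 h animal 1, whose spread enters the common estimate, and 8 without any 30 h array. Over all 31042 probe sets, lower calls at 16 h were 461 in the main fit. In the order of omissions just given they were 170, 148, 358, 807 and 958. The call of Ndufb8 held in 22 of 22 alternatives, those of Ndufb9 and Ndufa8 in 17 and 16, when the fit with the Gapdh difference as a covariate and the gene mean are left aside. With that covariate 0 of 46 were called by limma, beside 25 lower and 45 higher of all 31042 probe sets. An unadjusted p under 0.05 was found for 15 of 46 and for 6705 of all probe sets. Ndufb8 differed by -0.16 in that fit.

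At 30 h 21 of 46 probe sets, for 21 genes, were lower (45.7%), 3 were higher and 22 did not pass, where 9.36% of all probe sets were called lower and 10.4% higher. Among the upper 50% of probe sets by mean signal (15521, fitted and adjusted apart from the rest) 14.4% were called lower. That set is not matched to the members in signal. Members ran from brighter than 9.31% of all probe sets (the dimmer Ndufa9 probe set) to brighter than 99.3% (Ndufa4). The median log2 difference of the 46 was -0.25, against 0.01 over all probe sets. The arrays of 26 members lay wholly below those of heart-beating donors and the arrays of 6 wholly above, where 16.6% of all probe sets lay below and 16.9% above. The median of the 21 that fell was -0.61 and the lowest was -1.53 (Ndufb8). The falls were in 10 of 18 membrane arm probe sets, 4 of 6 core, 4 of 13 matrix arm accessory, 2 of 7 assembly factor probe sets, and Ndufa4. The 13 include second probe sets of Ndufa7, Ndufa9 and Ndufv3, so by gene the matrix arm had 4 of 10. The 7 include a second one of Ndufaf7. The shares of the roles were not tested against each other.

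Among core subunits, which carry the flavin and the iron-sulfur clusters, 4 fell and 0 rose at 30 h. Ndufs3, in the part of the arm next to the ubiquinone site, had signals of 9.87, 9.73 and 9.89 in heart-beating donors, 9.63, 9.91 and 9.76 at 4 h, 9.75, 9.60 and 9.46 at 16 h, and 8.77, 9.35 and 9.41 at 30 h. Every 30 h array lay below every other array, and animal 1 of the 30 h group was lowest by a wide margin. The difference from heart-beating donors was -0.65 (SE 0.14, limma adjusted p = 0.00645). Ndufs8, an iron-sulfur subunit of the same region, differed by -0.58 (SE 0.12), Ndufv2, an iron-sulfur partner of the flavin subunit, by -0.38 (SE 0.10), and Ndufv1, which binds the flavin and NADH, by -0.30 (SE 0.09). Ndufv1 had signals of 9.56, 9.71 and 9.85 at 30 h, against 9.98, 9.95 and 10.09 in heart-beating donors, without overlap. It averaged 9.71 ± 0.14 at 30 h and 10.01 ± 0.07 in heart-beating donors (SD, n = 3 each; limma adjusted p = 0.0326), and this call was among the least stable, holding in 12 of 21 alternatives. Ndufs1, the large iron-sulfur subunit, had signals of 8.92, 9.33 and 9.37 at 30 h, against 9.60, 9.36 and 9.45 in heart-beating donors, so the groups overlapped, with a difference of -0.26 (SE 0.11, limma adjusted p = 0.119). Ndufs7, which holds the last cluster before ubiquinone, was nearest to 0 in this group: 9.80, 9.99 and 10.02 at 30 h, against 10.07, 10.06 and 10.12 in heart-beating donors (-0.14, SE 0.10, limma adjusted p = 0.35).

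Matrix arm accessory subunits split. Ndufs6, a zinc-binding subunit near the NADH end, had signals of 11.10, 11.12 and 11.19 in heart-beating donors, 11.08, 11.07 and 11.12 at 4 h, 10.88, 10.67 and 10.65 at 16 h, and 9.42, 10.19 and 10.32 at 30 h. The 30 h arrays lay below all others, and the fold loss was 2.24 (log2 difference -1.16, SE 0.17, limma adjusted p = 0.000466). The SD of Ndufs6 was 0.48 at 30 h and 0.05 in heart-beating donors, while the SE pools the spread of all 4 groups. The brighter Ndufa7 probe set fell by 0.83 on the log2 scale (SE 0.09), Ndufab1, the mitochondrial acyl carrier protein that also serves lipoic acid synthesis, by 0.61 (SE 0.14), and Ndufa6 by 0.48 (SE 0.13). Ndufab1 had signals of 10.35, 10.90 and 11.02 at 30 h, against 11.37, 11.31 and 11.41 in heart-beating donors. The groups lay apart, with animal 1 again the lowest. The 9 probe sets of this arm that did not pass lay between -0.18 (Ndufa2, SE 0.07) and 0.25 (the dimmer Ndufv3 probe set, SE 0.10). Among them was Ndufs4, whose loss in mice gives a model of Leigh syndrome, with 8.78, 8.72 and 8.56 at 30 h, against 8.56, 8.50 and 8.73 in heart-beating donors. The arrays overlapped, and Ndufs4 averaged 8.69 ± 0.12 at 30 h and 8.60 ± 0.12 in heart-beating donors (SD, n = 3 each), with a difference of 0.09 (SE 0.08, limma adjusted p = 0.495). The brighter Ndufa9 probe set, nearest to 0 in this arm, had 9.95, 10.09 and 10.13 at 30 h, against 9.98 to 10.12 in heart-beating donors. Its difference was 0.03 (SE 0.08), that of the dimmer 0.16 (SE 0.07), and that of Ndufa12 -0.06 (SE 0.06).

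**Figure D2:**
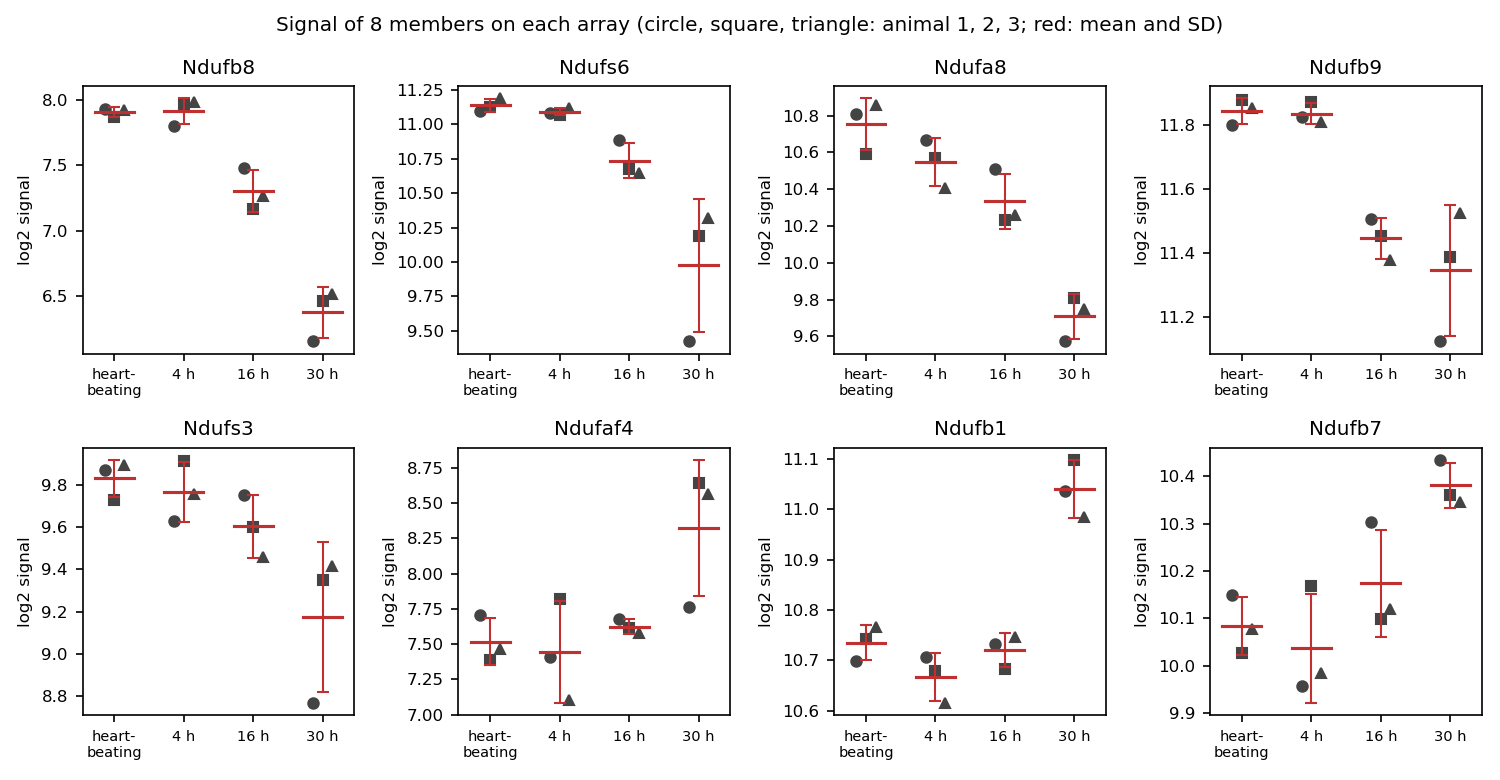
Log2 signal (y axis, own scale in each panel) of 8 members on each of 12 arrays by group (x axis), with circles, squares and triangles for animals 1, 2 and 3, and red lines and bars for mean and SD (n = 3). Ndufb8 lies at 6.16 to 6.51 at 30 h, below all other arrays, Ndufb9 is already lower at 16 h, and Ndufaf4, Ndufb1 and Ndufb7 are higher at 30 h.

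The membrane arm held the largest fall, that of Ndufb8, and moved in both directions. Ndufb8 had signals of 7.93, 7.87 and 7.92 in heart-beating donors, 7.80, 7.96 and 7.98 at 4 h, 7.48, 7.16 and 7.26 at 16 h, and 6.16, 6.46 and 6.51 at 30 h. The 4 h arrays overlapped those of heart-beating donors, and the 16 h and 30 h groups each lay apart from all earlier ones. The fold loss at 30 h was 2.89 (log2 difference -1.53, SE 0.10, limma adjusted p = 3.52e-06). Ndufa8 had signals of 10.81, 10.59 and 10.86 in heart-beating donors, 10.67, 10.57 and 10.41 at 4 h, 10.51, 10.23 and 10.26 at 16 h, and 9.57, 9.81 and 9.75 at 30 h. Its arrays overlapped between heart-beating donors and 4 h and lay lower at 30 h than at any other time, with a fold loss of 2.06 at 30 h (log2 difference -1.04, SE 0.10, limma adjusted p = 2.84e-05).

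Other membrane arm subunits had smaller falls. Ndufb11 had signals of 10.03, 10.35 and 10.54 at 30 h, against 11.06, 11.10 and 11.22 in heart-beating donors. Ndufb6 had 9.41, 9.83 and 10.04 at 30 h, against 10.49, 10.51 and 10.62 in heart-beating donors. Ndufc2 had 9.94, 10.35 and 10.54 at 30 h, against 11.02, 11.03 and 11.08 in heart-beating donors. In each of these the groups lay apart and animal 1 of the 30 h group was lowest. Ndufc1 had 10.11, 10.68 and 10.82 at 30 h, against 11.28, 11.21 and 11.28 in heart-beating donors. Ndufa11 had 9.97, 10.45 and 10.51 at 30 h, against 10.93, 10.91 and 10.94 in heart-beating donors. The groups lay apart for both, and animal 1 was again the lowest. The log2 difference at 30 h was -0.82 for Ndufb11 (SE 0.11), -0.78 for Ndufb6 (SE 0.12), -0.76 for Ndufc2 (SE 0.12), -0.71 for Ndufc1 (SE 0.14) and -0.61 for Ndufa11 (SE 0.12), with limma adjusted p from 0.000266 to 0.00301. Ndufb9 had another course: its signals were 11.80, 11.88 and 11.85 in heart-beating donors, 11.82, 11.87 and 11.81 at 4 h, 11.50, 11.45 and 11.38 at 16 h, and 11.12, 11.39 and 11.53 at 30 h. It was lower at 16 h and at 30 h (-0.50, SE 0.09), and its 16 h and 30 h arrays overlapped, with a difference between them of -0.10 that did not pass. Small falls of Ndufa1 (-0.21, SE 0.06, limma adjusted p = 0.0239) and Ndufb2 (-0.25, SE 0.08, limma adjusted p = 0.0434) passed, and Ndufb2 held in 5 of 21 alternatives. Ndufb5 (-0.25, SE 0.09, limma adjusted p = 0.06) and Ndufb10 (-0.28, SE 0.10, limma adjusted p = 0.0638) lay just outside the threshold.

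Ndufb1 and Ndufb7, also of the membrane arm, rose. Ndufb1, a small single-span subunit, had signals of 10.70, 10.74 and 10.77 in heart-beating donors, 10.71, 10.68 and 10.62 at 4 h, 10.73, 10.68 and 10.75 at 16 h, and 11.04, 11.10 and 10.98 at 30 h. Only the 30 h arrays stood apart, and all of them were higher (log2 difference 0.30, SE 0.06, limma adjusted p = 0.0028). Ndufb7, like Ndufa8 a disulfide-bonded subunit on the intermembrane side, had 10.44, 10.36 and 10.35 at 30 h, against 10.15, 10.03 and 10.08 in heart-beating donors, without overlap. It averaged 10.38 ± 0.05 at 30 h and 10.08 ± 0.06 in heart-beating donors (SD, n = 3 each), a log2 difference of 0.30 (SE 0.08, limma adjusted p = 0.016). The call of Ndufb1 held in 21 of 21 alternatives, and that of Ndufb7 ended without heart-beating donor 2 or donor 3. Ndufb4 (0.07, SE 0.06) and Ndufb3 (-0.06, SE 0.08) did not pass. Ndufb3, Ndufb4 and Ndufb11 have named near copies in the rat annotation, so their probe sets may share signal with these.

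Among assembly factors 2 fell and 1 rose at 30 h. Ndufaf4, which works with Ndufaf3 early in building the ubiquinone-binding part, had signals of 7.70, 7.39 and 7.47 in heart-beating donors, 7.41, 7.82 and 7.10 at 4 h, 7.68, 7.62 and 7.58 at 16 h, and 7.77, 8.64 and 8.57 at 30 h. The 30 h arrays lay above those of heart-beating donors, but animal 1 did so narrowly and lay below the highest 4 h array. The log2 difference from heart-beating donors was 0.81 (SE 0.21, limma adjusted p = 0.0157), and the call ended without heart-beating donor 2 or 3 and without 30 h animal 2 or 3. Ndufaf3 itself had a difference of -0.33 (SE 0.14, limma adjusted p = 0.129). Ndufaf8, a partner of the Ndufs7-modifying enzyme Ndufaf5, had signals of 6.75, 6.96 and 7.06 at 30 h, against 7.48, 7.37 and 7.50 in heart-beating donors. Ndufaf1, of the complex that assembles the membrane arm, had 6.15, 6.47 and 6.33 at 30 h, against 6.74, 6.58 and 6.73 in heart-beating donors. Neither gene's groups overlapped. Ndufaf8 fell by 0.53 (SE 0.09, limma adjusted p = 0.0012), and Ndufaf1 by 0.36 (SE 0.10, limma adjusted p = 0.0266). Ndufaf5, nearest to 0 among assembly factors, differed from heart-beating donors by 0.12 (SE 0.07, limma adjusted p = 0.251) at 30 h.

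Ndufa4, long counted with complex I and now assigned to cytochrome c oxidase, had signals of 12.02, 11.94 and 12.07 in heart-beating donors, 11.90, 11.96 and 11.94 at 4 h, 11.91, 11.81 and 11.79 at 16 h, and 10.99, 11.42 and 11.55 at 30 h. The 30 h arrays lay below all others, with a log2 difference from heart-beating donors of -0.69 (SE 0.11, limma adjusted p = 0.00101). Its paralog Ndufa4l2 is known to be induced by hypoxia through HIF-1 and to restrain complex I. Its probe set was dim, with a mean brighter than 44.6% of all probe sets, and its signals were 5.63, 5.49 and 5.69 at 30 h, against 5.57, 5.62 and 5.73 in heart-beating donors. The arrays overlapped at every time, and it averaged 5.56 ± 0.02 at 16 h and 5.60 ± 0.10 at 30 h, against 5.64 ± 0.08 in heart-beating donors (SD, n = 3 each). The log2 difference was 0.00 at 4 h, -0.08 (SE 0.08) at 16 h and -0.04 (SE 0.08) at 30 h, with limma adjusted p of 0.625 at 16 h and 0.791 at 30 h.

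The later times were also set against each other. At 30 h against 16 h, 13 of 46 probe sets were lower (28.3%) and 2 higher, where 5.95% of all probe sets were called lower and 4.29% higher. These 13 were all among the 21 that fell against heart-beating donors, led by Ndufb8 (-0.92, SE 0.10), Ndufs6 (-0.76, SE 0.17) and Ndufa8 (-0.62, SE 0.10). The 2 higher were Ndufb1 (0.32, SE 0.06) and Ndufaf5 (0.30, SE 0.07). The count lower was 4 without 16 h animal 1, and also 4 when only the groups compared were fitted. Over all probe sets the counts lower were 767 and 1037 in these fits, beside 1848 in the main fit. At 16 h against 4 h, Ndufb8 (-0.61, SE 0.10) and Ndufb9 (-0.39, SE 0.09) were lower and 0 of 46 higher, where 2.52% of all probe sets were lower and 5.31% higher. The count lower was 1 without 4 h animal 2, 16 h animal 2 or 16 h animal 3, and 6 without 30 h animal 1. In the same order of omissions 399, 297, 572 and 1224 of all probe sets were lower, beside 781 in the main fit. At 30 h against 4 h, 17 were lower and 3 higher, where 8.62% of all probe sets were lower and 10.3% higher. All 17 and all 3 had the same call against heart-beating donors.

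Probe sets of one gene differed in some cases. The brighter Ndufa7 probe set had signals of 9.26, 9.55 and 9.57 at 30 h, against 10.24, 10.32 and 10.29 in heart-beating donors, while the dimmer had 5.63, 5.94 and 5.85 at 30 h, against 5.86, 5.70 and 5.75 in heart-beating donors. The groups did not overlap for the first and overlapped for the second. The changes of the pair differed by -0.87 (brighter minus dimmer, SE 0.12, limma adjusted p = 1.29e-05 over 6609 probe set pairs of all genes). Those of Ndufaf7 differed by -0.31 (SE 0.11, limma adjusted p = 0.0361), with -0.18 for the brighter and 0.13 for the dimmer probe set, neither called on its own. The pairs of Ndufa9 and Ndufv3 did not pass. So 2 of 4 Nduf pairs moved apart at 30 h, where 34.8% of all pairs did, and 0 of 4 at 4 h and 16 h, where 0.0454% and 14.1% did. The dimmer probe sets of Ndufa7, Ndufaf7 and Ndufa9 were brighter than only 47.4%, 45.3% and 9.31% of all probe sets. A fall may not show in so dim a signal, and the part of this in the differences was not tested. The pair of Ndufaf7 was not called in several alternatives: without heart-beating donor 1, 2 or 3 or without 30 h animal 1, the count was 1.

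**Figure D3:**
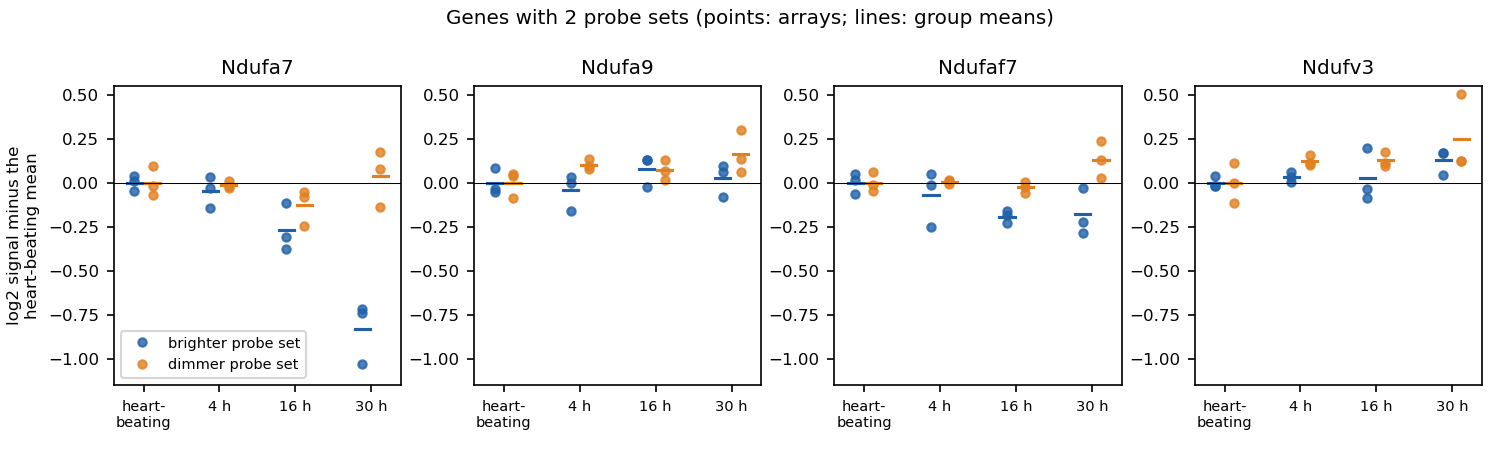
Log2 signal minus the mean of heart-beating donors (y axis) by group (x axis) for the 4 genes with 2 probe sets, blue for the brighter and orange for the dimmer, points for arrays and lines for group means (n = 3). At 30 h the brighter Ndufa7 probe set averages -0.83 and the dimmer 0.04.

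Arrays of the same group differed in one direction for most members. At 30 h, animal 1 gave the lowest signal of the 3 for 38 of 46 probe sets. The median of its members was -0.43 from the mean of heart-beating donors, against -0.19 for animal 2 and -0.13 for animal 3. Over all probe sets the same medians were 0.03, -0.02 and 0.01. Shares of all probe sets that were lowest or highest on an array were not counted. The array of animal 1 also had the largest Gapdh 3' to 5' difference, 2.30, beside 1.82 and 1.79. At 16 h, animal 1 gave the highest signal for 38 of 46 and had the smallest Gapdh difference, 0.85, beside 1.25 and 1.06. In heart-beating donors, donor 3 was highest for 29 of 46 with a Gapdh difference of 0.31, beside 0.45 and 0.41, and at 4 h animal 2 was highest for 27 with 0.27, beside 0.46 and 0.42. So in each of the 4 groups the array with the smallest Gapdh difference was the highest for most members. The array with the largest was lowest for the most members at 30 h and, with 22 beside 21 for animal 3, at 4 h. In heart-beating donors that array (donor 1) was lowest for 15, beside 28 for donor 2. At 16 h it (animal 2) was lowest for 17, beside 24 for animal 3. The part of RNA quality in these orders was not tested. The median SD of the members was 0.17 at 30 h and 0.07 in heart-beating donors, beside 0.12 and 0.08 over all probe sets.

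Without 30 h animal 1 the count lower at 30 h was 16, all of them among the 21. Over all probe sets the count lower was then 2381, beside 2904 in the main fit. With the Gapdh difference as a covariate, 0 of 46 members and 0 of all 31042 probe sets were called at 30 h by limma, while 13 members and 4438 probe sets had an unadjusted p under 0.05. In that fit the log2 difference was above 0 for 19 of the 21 members called before and below 0 for Ndufb8 (-0.46) and Ndufa8 (-0.31). Without that covariate and the gene mean, 15 of the 21 calls held in every one of 21 alternatives, and of the rises that of Ndufb1 did.

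**Figure D4:**
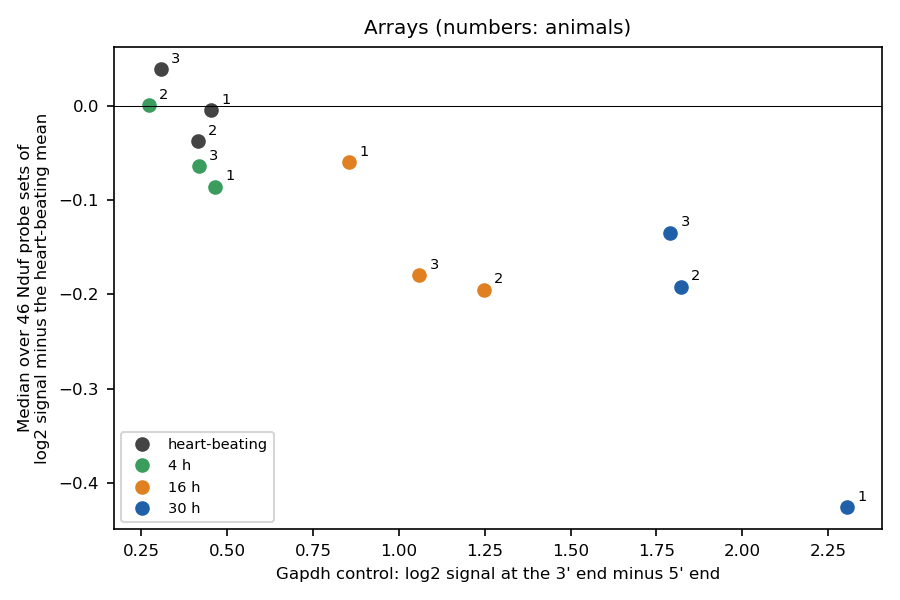
Median over 46 Nduf probe sets of the log2 signal minus the mean of heart-beating donors (y axis) against the Gapdh 3' minus 5' log2 difference (x axis), 1 point per array with the animal's number. The 30 h arrays lie at -0.43 to -0.13, with animal 1 lowest and farthest right.

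Genes that serve complex I without an Nduf name were read from the same fit. Of 12 probe sets of 10 other assembly genes, 4 were lower (33.3%) and 2 higher (16.7%) at 30 h, where 9.36% of all probe sets were lower and 10.4% higher. Their median was -0.13, against 0.01 over all. Tmem126b, a membrane protein of the assembly complex that also holds Ndufaf1, had signals of 8.13, 8.40 and 8.61 at 30 h, against 9.24, 9.17 and 9.31 in heart-beating donors, without overlap (log2 difference -0.86, SE 0.10, limma adjusted p = 0.000122). Its dimmer probe set differed by 0.03 (SE 0.06). Acad9, an acyl-CoA dehydrogenase relative in the same complex, fell by 0.53 (SE 0.09), and Dmac1, of distal membrane arm assembly, by 0.56 (SE 0.13), while 1 of 2 probe sets of Dmac2 rose by 0.46 (SE 0.08).

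Regulators of mitochondrial gene expression were read against heart-beating donors in the same way. Of 19 probe sets of 12 such genes, 3 were higher (15.8%) and 0 lower at 30 h, where 10.4% of all probe sets were higher and 9.36% lower, so the share higher was near that of all probe sets. Their median was 0.07, against 0.01 over all. Gabpb1, a subunit of the ETS factor GABP, had signals of 7.33, 7.73 and 7.42 at 30 h, against 6.80, 6.62 and 6.92 in heart-beating donors, without overlap (log2 difference 0.72, SE 0.11, limma adjusted p = 0.000505). Esrra, an orphan nuclear receptor that drives respiratory genes, differed by 0.41 (SE 0.09, limma adjusted p = 0.00681), and Tfb1m, a methyltransferase of mitochondrial ribosomal RNA, by 0.26 (SE 0.09, limma adjusted p = 0.0493). Pprc1, a coactivator of the PGC-1 family, had a difference of 0.33 with a limma adjusted p of 0.0806. At 16 h, 1 of 3 probe sets of the coactivator Ppargc1a had signals of 6.32, 6.28 and 5.39, against 4.68, 4.78 and 4.60 in heart-beating donors, a log2 difference of 1.31 (SE 0.18, limma adjusted p = 0.00253). It was singled out after its values were seen, and at 30 h it differed from heart-beating donors by 0.14 (SE 0.18). At 30 h against 16 h it was lower by 1.17 on the log2 scale (SE 0.18, limma adjusted p = 0.00197). In heart-beating donors this probe set lay below the median signal of their arrays (5.86 to 5.87). The brightest Ppargc1a probe set had 7.10, 7.20 and 6.91 at 16 h, against 6.99, 7.07 and 7.11 in heart-beating donors. Its 30 h signals were 7.08, 6.48 and 6.70. The dimmest had 3.94, 3.94 and 3.98 at 16 h, against 3.87, 3.90 and 3.88. Neither passed the test against heart-beating donors at 16 h or 30 h.

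The other respiratory complexes, by lists of nuclear subunits, also fell at 30 h. Lower calls were 5 of 5 probe sets for complex II, 8 of 9 for complex III, 6 of 9 for complex IV and 8 of 15 for complex V, in which 1 was higher. Of all probe sets 9.36% were called lower and 10.4% higher. Of the upper 50% by mean signal, fitted apart and not matched to these lists in signal, 14.4% were called lower. For complexes II to V the median log2 differences were -0.63, -0.59, -0.26 and -0.29. The median was -0.25 for the 37 structural subunit probe sets of complex I, of which 18 were lower and 2 higher. No test of a difference between the complexes was made, and Ndufa4 is in none of these counts.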

How the data were processed

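Gene expression was measured on 12 Affymetrix rat arrays. The authors deposited log2 signals, 1 per probe set and array. The submitters' processing notes name RMA and limma, without versions or settings. Platform symbols named the genes, and all 46 members matched a RefSeq gene by ID.

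The 31042 non-control probe sets of the 12 arrays were fitted together, each group with its own mean, with limma 3.58.1 in R 4.3.3 (8 residual degrees of freedom), without a filter, and p-values were adjusted over all probe sets (Benjamini-Hochberg). A probe set was called at an adjusted p under 0.05. Each SE pools the spread of all 4 groups, so it is not that of the 30 h arrays, whose median SD was the largest. Array number limits the precision. The fit was tested on simulated data. Members were named as the largest called changes whose arrays did not overlap (per comparison with heart-beating donors up to 12 lower and 8 higher, between times up to 5 and 3), the smallest p and the difference nearest 0 in each role, and fixed genes (Ndufs1, Ndufv1, Ndufs4, Ndufa4, Ndufa4l2, Ndufaf1), with up to 4 of each other pathway list by p; the rest stand as counts, ranges or further examples. Members, lists and tests were chosen with earlier results of these data known. Alternatives changed scaling, filter, features, variance model, weights, groups fitted, replicate block, the Gapdh covariate and single arrays. Probe sets with several symbols were tested apart.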

Additional observations from a re-analysis of the deposited data

Results flagged for a closer look

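Probe sets whose annotation names an Nduf gene together with a second symbol stood outside the members, and 2 such probe sets passed the test at 30 h. The probe set shared by Ndufs5, a disulfide-bonded membrane arm subunit, and its pseudogene Ndufs5-ps2 averaged 10.89 ± 0.18 at 30 h and 11.21 ± 0.03 in heart-beating donors (SD, n = 3 each), a log2 difference of -0.32 (SE 0.08, limma adjusted p = 0.0136). The probe set shared by Ndufa10 and Ndufa10l1 averaged 8.52 ± 0.13 at 30 h and 8.77 ± 0.05 in heart-beating donors (SD, n = 3 each), a log2 difference of -0.26 (SE 0.08, limma adjusted p = 0.0387). Both were singled out because they carry a signal in data that the counts of members do not use. Which of the genes gives the signal was not tested.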

How the results depend on the processing

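Counts at 4 h were 0 under all settings. The 21 probe sets lower at 30 h were 15 to 22 when single arrays were left out, the 3 lower at 16 h were 1 to 5, and the 3 higher at 30 h were 1 to 3. Between times, the same omissions gave 4 to 16 lower and 1 to 3 higher at 30 h against 16 h, 1 to 6 lower at 16 h against 4 h, 14 to 21 lower and 3 to 3 higher at 30 h against 4 h, and 1 to 2 probe set pairs that moved apart at 30 h. Cyclic loess gave 5 lower at 16 h, 7 lower at 16 h against 4 h and 5 higher at 30 h against 16 h. Further quantile normalization gave 5 higher at 30 h, 5 lower at 16 h against 4 h and 6 higher at 30 h against 16 h. Array weights gave 11 lower at 16 h, 8 lower at 16 h against 4 h, 8 lower at 30 h against 16 h and 1 pair. Fitting only the groups compared gave 4 lower and 1 higher at 30 h against 16 h. Leaving out the 30 h arrays gave 8 lower at 16 h and 7 at 16 h against 4 h. Over all probe sets, lower calls at 16 h were 461 in the main fit. They were 607 with cyclic loess, 1441 with array weights and 958 without the 30 h arrays. At 16 h against 4 h the lower calls were 781 in the main fit, and 956, 1627 and 1443 in these fits. At 30 h against 16 h they were 1848 in the main fit, 1484 with array weights and 1037 with only the groups compared. The upper 50% of probe sets by signal gave 0 pairs, by construction for the 2 pairs called in the main fit. That filter removed the dimmer probe sets of Ndufa7, Ndufaf7 and Ndufa9, so these pairs were not tested there. Over all probe sets, 68.2% of calls at 16 h were higher, against 59.3% with loess, 57.6% with quantile normalization and 76.0% with median centring. The causes of these moves were not tested.

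Taking the Gapdh control difference between 3' and 5' ends into the fit left 0 called in all comparisons but 16 h against 4 h. There 3 were higher and 0 lower, beside 781 higher and 521 lower of all probe sets. In that fit the log2 difference at 30 h turned above 0 for Ndufs6 (0.70), Ndufv2 (0.80), Ndufa4 (0.48), Ndufb6 (0.58), Ndufv1 (0.29), Ndufb9 (0.26), Ndufa11 (0.75), Ndufa7 (0.038), Ndufc2 (0.43), Ndufaf8 (0.27), Ndufa6 (0.85), Ndufb11 (0.36), Ndufs8 (0.63), Ndufs3 (0.89), Ndufa1 (0.11), Ndufb2 (0.42), Ndufab1 (0.97), Ndufc1 (0.79) and Ndufaf1 (0.59). The covariate and the time groups cannot be told apart at 16 h and 30 h. The dimmer Ndufa7 probe set reads -0.40 when averaged with the brighter one, by construction.

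The labels number the animals 1 to 3 in each group without tying numbers together. Of 18 correlations between same-numbered arrays 2 exceeded 0.1 (range -0.27 to 0.11), so the numbers were not taken to pair animals. With the replicate block 2 members were lower at 16 h, 20 lower and 3 higher at 30 h, and 1 pair moved apart.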
